A study of Homo sapiens with 8 samples.

Results

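The BCL2 family sets the threshold at which a cell commits to apoptosis through its mitochondria. In all, 10 members were read here, chosen by symbol from the 60332 genes of the deposited expression table, and each symbol was represented by 1 gene. They were the anti-apoptotic BCL2, BCL2L1 and MCL1, the effectors BAX and BAK1, and the BH3-only genes BCL2L11, BBC3, PMAIP1, BID and BMF. All 10 passed the filter on low values and are among the 15175 genes tested. RNA was sequenced from 2 cell lines established from Ewing sarcoma, RD-ES and SK-N-MC, each with 2 control and 2 enhancer knockdown libraries (8 in all). In eKD2 cells, a nuclease-dead Cas9 fused to the KRAB repressor domain (dCas9-KRAB) was directed to the GGAA repeat that acts as an enhancer of LOXHD1. Control cells carried the same virus without a guide, per the labels, whereas the paper calls them parental. All groups of both lines received virus at an MOI (multiplicity of infection) of 10, were exposed to 1 µg/ml puromycin for 3 days and were used within 5 passages, so that no group is free of dCas9-KRAB by its label. The cells are selected pools of 2 lines, and the labels do not say whether the 2 libraries of a group came from separate infections or cultures, so p-values measure only the spread between these libraries.

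Anti-apoptotic members hold the effectors in check at the outer mitochondrial membrane. BH3-only proteins carry stress signals: they occupy the groove of the anti-apoptotic members, and some of them also activate the effectors directly. Freed BAX and BAK1 oligomerise, open the membrane and release cytochrome c, after which caspases are activated on the apoptosome. Much of this control acts on proteins, through phosphorylation, cleavage and degradation, and mRNA levels do not show it. MCL1 and PMAIP1 in particular are short-lived proteins.

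LOXHD1, the target of the knockdown, was read as a check of the labels: it fell by 95.2% in RD-ES (21.4 and 21.2 to 1.04 and 1.02 FPKM) and fell by 93% in SK-N-MC (158.9 and 169 to 11 and 11.9 FPKM). Read numbers were not used here. From the steps in which low FPKM values rise, the depth of the libraries relative to RD-ES control 1 ranged from 0.578 (RD-ES eKD2 replicate 1) to 2.32 (SK-N-MC control replicate 1). All 8 markers of Ewing sarcoma cells were expressed, with CD99 between 201 and 586 FPKM and NKX2-2 between 24.2 and 30.7 FPKM, whereas NR0B1 was at 2.38 to 3.84 FPKM in RD-ES and 51.0 to 59.6 FPKM in SK-N-MC. Of 6 stromal markers, 5 were higher in SK-N-MC (DCN, 134 to 159 FPKM against 0.695 to 2.90 in RD-ES), as was PTPRC among 5 blood markers (19.2 to 22.6 FPKM against most 0.0173), while CD3E and HBB were at 0 in every library. Among 4 epithelial markers, KRT8 (8.24 FPKM) and CDH1 (3.501 FPKM) stood apart in RD-ES eKD2 replicate 1, against most 2.13 and 0.168 FPKM in the other 7 libraries. The remaining markers did not: KRT18 was at 40.6 FPKM there, within the range of the other libraries (35.2 to 54.4 FPKM). EPCAM was at 0.971 FPKM there, above the other RD-ES libraries but below every SK-N-MC library (2.96 to 4.54 FPKM). The part of these markers, and of depth, in the results that follow was not tested, and values without RD-ES eKD2 replicate 1 are given beside the results that rest on it.

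The sequences upstream of 3 members are shown because these members carry the results: BCL2 and PMAIP1, which differ most between the lines among the higher genes, and BAX, the most abundant member. They are the 250 bases before the RefSeq start in GRCh38.p14, 5′ to 3′ on the strand of the gene. Capitals mark GGAA on either strand in BCL2 and PMAIP1 and CACGTG, a palindromic E box, in BAX. The windows are chr18:63319770-63320019 (minus strand) for BCL2, chr18:59899746-59899995 (plus strand) for PMAIP1 and chr19:48954625-48954874 (plus strand) for BAX.
BCL2: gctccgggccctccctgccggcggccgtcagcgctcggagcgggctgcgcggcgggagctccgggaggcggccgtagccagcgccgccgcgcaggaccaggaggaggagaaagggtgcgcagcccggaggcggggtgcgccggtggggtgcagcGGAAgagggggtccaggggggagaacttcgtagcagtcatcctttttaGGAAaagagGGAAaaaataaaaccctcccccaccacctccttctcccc
PMAIP1: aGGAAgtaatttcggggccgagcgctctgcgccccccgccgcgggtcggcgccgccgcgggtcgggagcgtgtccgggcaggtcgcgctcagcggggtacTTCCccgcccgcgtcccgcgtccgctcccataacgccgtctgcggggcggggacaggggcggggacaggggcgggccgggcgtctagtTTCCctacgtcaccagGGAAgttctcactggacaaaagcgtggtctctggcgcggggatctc
BAX: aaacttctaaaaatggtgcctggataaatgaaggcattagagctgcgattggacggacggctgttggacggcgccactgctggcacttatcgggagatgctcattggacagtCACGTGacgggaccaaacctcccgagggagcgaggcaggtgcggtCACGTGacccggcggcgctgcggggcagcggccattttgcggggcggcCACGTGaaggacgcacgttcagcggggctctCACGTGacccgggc
The RefSeq table held 15 starts for 9 of the 10 members, and MCL1 was not matched. GGAA, the core of ETS sites and the unit of the repeats bound by EWSR1::FLI1, occurred 3 times in the BCL2 window and 4 times in that of PMAIP1. Such a match is common, since 92.7% of 35116 promoter windows of the same length held at least 1 (median 3). GGAAGGAA, a pair of units in tandem, was in none of the 15 member windows and in 3.06% of all windows. BAX held CACGTG 4 times, and 6.34% of all windows held it at least once; BBC3 and 2 of the 5 BID starts held it once. TGACGTCA, the palindromic cAMP response element, was in none of the member windows and in 1.65% of all. Both strands were searched for each motif, GGAA within GGAAGGAA was counted too, and a match is a description of the letters and not a binding site.

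BCL2 and PMAIP1 are on the same chromosome as LOXHD1. In GRCh37, the build of the expression values, BCL2 is annotated on chromosome 18 from 60790579 to 60987361 on the minus strand and PMAIP1 from 57567228 to 57571537 on the plus strand. They lie 16.55 and 13.33 Mb from LOXHD1. MCL1 is annotated on chromosome 1 from 150533371 to 150552214 (minus strand) and BAX on chromosome 19 from 49458072 to 49465055 (plus strand). Exons of BCL2L11 share 727 bases, 10.8% of its exonic length, with the opposite-strand lncRNA MIR4435-2HG, whose mean was 10.5 FPKM. No source used here states that the counting was by strand, so reads in that overlap cannot be told apart. The BCL2L1 exons share 41.3% of their bases with ABALON on the opposite strand, which was listed at a mean of 0.00443 FPKM.

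BAX, which forms the pore in the outer membrane, had the highest level per transcript length of the 10 members in all 4 groups, and the BH3-only genes BID and PMAIP1 and the anti-apoptotic MCL1 followed it. FPKM is normalised to length, so the order of genes rests also on the length used for each gene, which was not checked. In the GENCODE annotation the canonical BAX transcript has 795 bases, whereas all BAX exons cover 2587. In RD-ES control cells the order was BAX (154 ± 0.822 FPKM, SD, n = 2), BID (77.9 ± 15.5), MCL1 (73.4 ± 2.81), PMAIP1 (40.1 ± 0.821), BCL2L1 (19.3 ± 1.29), BMF (15.1 ± 1.07), BAK1 (8.07 ± 0.530), BCL2L11 (7.52 ± 2.26), BCL2 (2.13 ± 0.0769) and BBC3 (1.69 ± 0.485). The libraries of BID and MCL1 overlapped, as did those of BAK1 and BCL2L11, so that these neighbours in the order were not separated. In SK-N-MC control cells PMAIP1 (71.6 ± 2.34 FPKM, SD, n = 2) stood above MCL1 (36.6 ± 2.10) and overlapped with BID (75.7 ± 11.3), and BCL2 (8.46 ± 0.268) stood above BAK1 (6.11 ± 0.00947). BCL2 was at the 18.3 percentile of the tested genes in RD-ES control and at the 39.3 percentile in SK-N-MC control. The plot of FPKM by member shows this order and the spread of each pair of libraries.

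**Figure D1:**
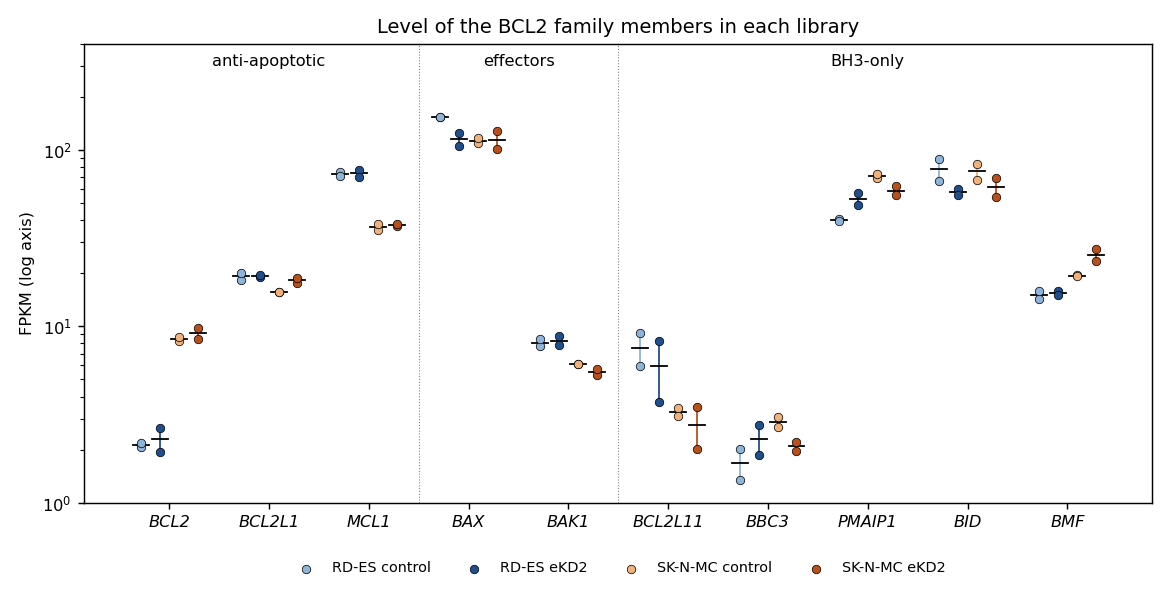
FPKM (log axis) of the 10 members in each library, with members ordered by role on the horizontal axis. Points are libraries, coloured by group, and short black lines are means of 2 libraries; BAX is highest in every group, MCL1 is at about 71 to 77 FPKM in the RD-ES libraries against 35 to 38 FPKM in SK-N-MC, and BCL2 is at 1.93 to 2.65 against 8.28 to 9.85 FPKM.

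The control libraries of the lines were compared to ask how the balance of the family differs between them. Of the 10 members, 7 differed between SK-N-MC and RD-ES (limma adjusted p under 0.05), 3 higher and 4 lower in SK-N-MC, beside 57.8% of all genes tested (31.4% higher and 26.4% lower). The lines differ in many genes, and 7 of 10 is near this background. Fewer members passed when 1 control library was left out, which leaves 1 library in that group. Without either SK-N-MC control library fewer of all genes tested passed too, so the drop is not particular to the members. BCL2, MCL1 and PMAIP1 were the members kept there. In bulk libraries, fewer cells that express a gene and less RNA per cell cannot be told apart. All log2 differences are on the log2(FPKM + 1) scale, which understates the change of low genes such as BCL2 and BBC3. The median over all tested genes was 0.065 as deposited and -0.042 after scaling the libraries to 1 median.

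Among the anti-apoptotic members, BCL2 and MCL1 differed in opposite directions. BCL2, the founding member and the target of venetoclax, was at 2.08 and 2.19 FPKM in RD-ES control against 8.28 and 8.65 FPKM in SK-N-MC control. Every SK-N-MC library was above every RD-ES library, and the means differed 3.97-fold (log2 difference 1.59, SE 0.14, limma adjusted p = 2.5e-04). MCL1, which holds BAK1 and binds PMAIP1 with preference, was at 75.4 and 71.4 FPKM in RD-ES control against 35.2 and 38.1 FPKM in SK-N-MC control. Both SK-N-MC libraries were below both RD-ES libraries, at 0.499 of the RD-ES mean (log2 difference -0.98, SE 0.08, limma adjusted p = 1.6e-04). BCL2L1, which encodes BCL-XL, had a smaller difference in the direction of MCL1, with 18.4 and 20.2 FPKM in RD-ES control against 15.7 and 15.7 FPKM in SK-N-MC control (log2 difference -0.28, SE 0.08, limma adjusted p = 0.025). Its call was lost with the control libraries fitted alone (adjusted p = 0.063), without RD-ES control replicate 2 (0.099) and without either SK-N-MC control library (0.089 and 0.087).

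Both effectors were lower in SK-N-MC control. BAX was at 154.5 and 153.4 FPKM in RD-ES and 109 and 117 FPKM in SK-N-MC (log2 difference -0.44, SE 0.13, limma adjusted p = 0.029). BAK1, which unlike BAX resides at the membrane before activation, was at 7.69 and 8.44 FPKM in RD-ES and 6.10 and 6.12 FPKM in SK-N-MC (log2 difference -0.35, SE 0.10, limma adjusted p = 0.025). The libraries of the lines did not overlap for either gene. The BAX call was lost without a filter on low values (adjusted p = 0.15) and without any 1 of the 4 control libraries (adjusted p from 0.079 to 0.14). That of BAK1 was lost with the control libraries fitted alone (adjusted p = 0.067), without RD-ES control replicate 2 (0.11) and without either SK-N-MC control library (0.097 and 0.094).

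Of the 5 BH3-only members, PMAIP1 and BMF were higher in SK-N-MC control. PMAIP1, which encodes NOXA, was at 40.7 and 39.6 FPKM in RD-ES and 69.9 and 73.2 FPKM in SK-N-MC. The groups were far apart relative to their spread, 1.78-fold in the means (log2 difference 0.82, SE 0.10, limma adjusted p = 9.3e-04). BMF, a BH3-only protein known for its tie to the dynein light chain and the cytoskeleton, was at 14.3 and 15.9 FPKM in RD-ES and 19.5 and 19.2 FPKM in SK-N-MC (log2 difference 0.34, SE 0.10, limma adjusted p = 0.026). After median scaling this difference was 0.20 with an adjusted p of 0.097, and the call was lost too with quantile normalization (adjusted p = 0.076), without a filter (0.081), without RD-ES control replicate 1 (0.11) and without either SK-N-MC control library (0.10 and 0.092).

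The remaining BH3-only members did not pass the threshold in the fit reported here, and BCL2L11 and BBC3 each passed in 5 of 15 alternatives. BCL2L11, which encodes BIM, a direct activator of the effectors, was at 9.12 and 5.93 FPKM in RD-ES control against 3.43 and 3.12 FPKM in SK-N-MC control (log2 difference -0.97, 95% interval -1.88 to -0.06, limma adjusted p = 0.065). The RD-ES libraries were both above those of SK-N-MC but stood wide apart from each other. Its adjusted p was 0.047 after median scaling, 0.042 after quantile normalization, 0.041 with the control libraries fitted alone and 0.034 without either RD-ES eKD2 library. BBC3, which encodes PUMA, was at 1.34 and 2.03 FPKM in RD-ES and 2.69 and 3.07 FPKM in SK-N-MC (log2 difference 0.54, 95% interval 0.04 to 1.04, limma adjusted p = 0.065). Its adjusted p was 0.031 with a replicate block, 0.048 without a trend, 0.047 without RD-ES control replicate 2 and 0.044 or 0.045 without 1 RD-ES eKD2 library. BID, which is cleaved by caspase-8 and links death receptors to mitochondria, overlapped between the lines (67.0 and 88.8 against 67.8 and 83.7 FPKM, log2 difference -0.03, 95% interval -0.49 to 0.43). In all, the control libraries of the lines did not overlap for 9 of the 10 members, beside 79.8% of all genes tested.

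The same comparison between the eKD2 libraries, chosen after the values were seen, gave 4 of 10 members beside 56.3% of all genes. BCL2 (log2 difference 1.63, limma adjusted p = 2.4e-04), MCL1 (-0.94, adjusted p = 1.9e-04), BAK1 (-0.52, adjusted p = 0.0059) and BMF (0.68, adjusted p = 0.0018) differed there. PMAIP1 did not: its log2 difference between the lines was 0.15 (95% interval -0.10 to 0.40, limma adjusted p = 0.25) among eKD2 libraries. BAX, at 115 FPKM in RD-ES eKD2 and 114 FPKM in SK-N-MC eKD2 on average, had a log2 difference of -0.02 (95% interval -0.34 to 0.31). The plot of line differences sets both comparisons side by side.

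**Figure D2:**
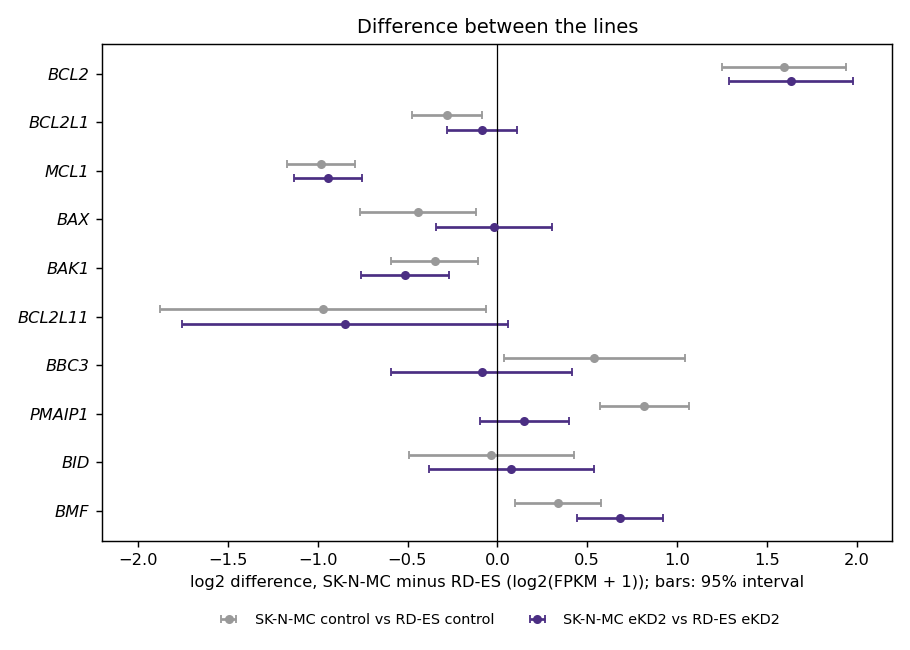
Log2 difference between SK-N-MC and RD-ES (horizontal axis, log2(FPKM + 1) scale) for each member, in control libraries (grey) and eKD2 libraries (purple), with 95% intervals of the limma fit. BCL2 lies near 1.6 and MCL1 near -0.9 to -1.0 in both, while PMAIP1 lies at 0.82 between controls and 0.15 between eKD2 libraries.

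The eKD2 comparison asks whether silencing of the LOXHD1 enhancer goes with a shift in this family. In RD-ES, none of the 10 members passed an adjusted p of 0.05 (limma), beside 0.343% of all genes tested. In SK-N-MC it was also 0 of 10, beside 0.323% of all genes, and the difference between the changes of the lines was called for 0 of 10, beside 0.244% (2 at an unadjusted p under 0.05, BMF and PMAIP1, beside 13.5%). At these backgrounds a count of 0 among 10 genes is near what all genes give. At an unadjusted p under 0.05 there were 2 members in RD-ES (1 higher, 1 lower, beside 12.3% of all genes) and 3 in SK-N-MC (2 higher, 1 lower, beside 13.0%). With 2 libraries a side the exact two-sided permutation p is at least 0.333, so single members were tested only in the limma fit over all genes. The median log2 change of the members was 0.02 (RD-ES) and -0.06 (SK-N-MC), beside 0.03 and -0.0049 for all genes tested.

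PMAIP1 was the member with the smallest p in RD-ES and the 1 member whose eKD2 libraries lay on opposite sides of the controls in the lines. For 10 members, a count of 1 is near the share of all genes, 10.2%. The RD-ES values were 40.7 and 39.6 FPKM in control against 57.3 and 48.7 FPKM in eKD2. Both eKD2 libraries were above both controls, 1.32-fold in the means (log2 difference 0.39, SE 0.10, unadjusted p = 0.0086, limma adjusted p = 0.24). Without RD-ES eKD2 replicate 1 the log2 difference was 0.27 (adjusted p = 0.44). In SK-N-MC it was at 69.9 and 73.2 FPKM in control against 62.2 and 55.4 FPKM in eKD2. There both eKD2 libraries were below both controls, at 0.822 of the control mean (log2 difference -0.28, SE 0.10, unadjusted p = 0.032, limma adjusted p = 0.34). The difference between these changes was -0.67 (SE 0.14, 95% interval -1.02 to -0.32, unadjusted p = 0.0034), with a limma adjusted p of 0.19 and a range of 0.13 to 0.45 over the alternative settings. Of all genes tested, 10.2% had eKD2 libraries on opposite sides of the controls in this way.

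BAX and BID had lower values in RD-ES eKD2. BAX was at 154.5 and 153.4 FPKM in RD-ES control against 105.5 and 124.8 FPKM in eKD2. The eKD2 libraries were both below the controls but apart from each other, and their mean was 0.748 of the control mean (log2 difference -0.42, SE 0.13, unadjusted p = 0.019, limma adjusted p = 0.30). Without RD-ES eKD2 replicate 1 the log2 difference was -0.30 (adjusted p = 0.56). BID was at 67.0 and 88.8 FPKM in RD-ES control against 60.5 and 55.9 FPKM in eKD2 (log2 difference -0.40, 95% interval -0.86 to 0.06, limma adjusted p = 0.46). Leaving out 1 library moved it between -0.60 (without RD-ES control replicate 1) and -0.20 (without RD-ES control replicate 2), and without RD-ES eKD2 replicate 1 it was -0.46. In SK-N-MC the BAX libraries overlapped (109 and 117 against 101 and 127.6 FPKM, log2 difference 0.0048, 95% interval -0.32 to 0.33), and so did those of BID (67.8 and 83.7 against 54.1 and 69.7 FPKM, log2 difference -0.29). Each of the 4 SK-N-MC libraries moved the BID value by over 1.5 times when left out: it was -0.44 and -0.14 without control replicates 1 and 2, and -0.11 and -0.47 without eKD2 replicates 1 and 2. The difference between the changes of BAX was 0.42 with a 95% interval from -0.03 to 0.88 (limma adjusted p = 0.40).

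BMF and BCL2L1 had the smallest p among the higher members in SK-N-MC. BMF was at 19.5 and 19.2 FPKM in SK-N-MC control against 23.6 and 27.3 FPKM in eKD2. Both eKD2 libraries were above the controls, by 31.5% in the means (log2 difference 0.37, SE 0.10, unadjusted p = 0.0086, limma adjusted p = 0.22). In RD-ES the BMF libraries overlapped, with 14.3 and 15.9 FPKM in control against 15.8 and 15.1 FPKM in eKD2. DYNLL2, the dynein light chain that holds BMF, was at 10.2 and 9.85 FPKM in SK-N-MC control against 12.7 and 12.9 FPKM in eKD2 (log2 difference 0.32, limma adjusted p = 0.20). BCL2L1 was at 15.7 and 15.7 FPKM in SK-N-MC control against 17.7 and 18.7 FPKM in eKD2, 15.9% higher in the means (log2 difference 0.20, SE 0.08, unadjusted p = 0.045, limma adjusted p = 0.37).

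MCL1 had the narrowest intervals of the 10 members. It was at 76.8 and 70.7 FPKM in the RD-ES eKD2 libraries and at 37.3 and 38.3 FPKM in those of SK-N-MC, overlapping with the controls in both lines. The interval of its change ran from 0.881-fold to 1.15-fold in RD-ES and from 0.905-fold to 1.18-fold in SK-N-MC on the log2(FPKM + 1) scale. BCL2 likewise overlapped, with 2.65 and 1.93 FPKM in the RD-ES eKD2 libraries, 9.85 and 8.5 FPKM in those of SK-N-MC, and intervals from 0.822-fold to 1.33-fold and from 0.845-fold to 1.36-fold. BCL2L1 in RD-ES was at 19.1 and 19.6 FPKM in eKD2, between its controls (95% interval of the log2 difference -0.19 to 0.20). BAK1 was at 7.82 and 8.78 FPKM in RD-ES eKD2, overlapping with control, and at 5.30 and 5.71 FPKM in SK-N-MC eKD2, both below control, at 0.900 of its mean (limma adjusted p = 0.65).

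The 2 BH3-only genes with the lowest levels were also the least precise. BCL2L11 was at 3.73 and 8.21 FPKM in the RD-ES eKD2 libraries, and at 3.48 and 2.00 FPKM in SK-N-MC eKD2, and its libraries overlapped with control in both lines. Its interval in RD-ES ran from 0.420-fold to 1.48-fold, the widest of the 10 members. BBC3 was at 1.86 and 2.76 FPKM in RD-ES eKD2, overlapping with control, and at 1.97 and 2.21 FPKM in SK-N-MC eKD2, below both controls (log2 difference -0.33, 95% interval -0.83 to 0.18, limma adjusted p = 0.55). The difference between the changes of BBC3 was -0.63 (95% interval -1.34 to 0.08, limma adjusted p = 0.43). Counting members whose eKD2 libraries did not overlap with control gave 1 above and 2 below in RD-ES (beside 39.3% of all genes in either direction) and 2 above and 3 below in SK-N-MC (beside 47.3%). The plot of changes shows the intervals of all members in both lines.

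**Figure D3:**
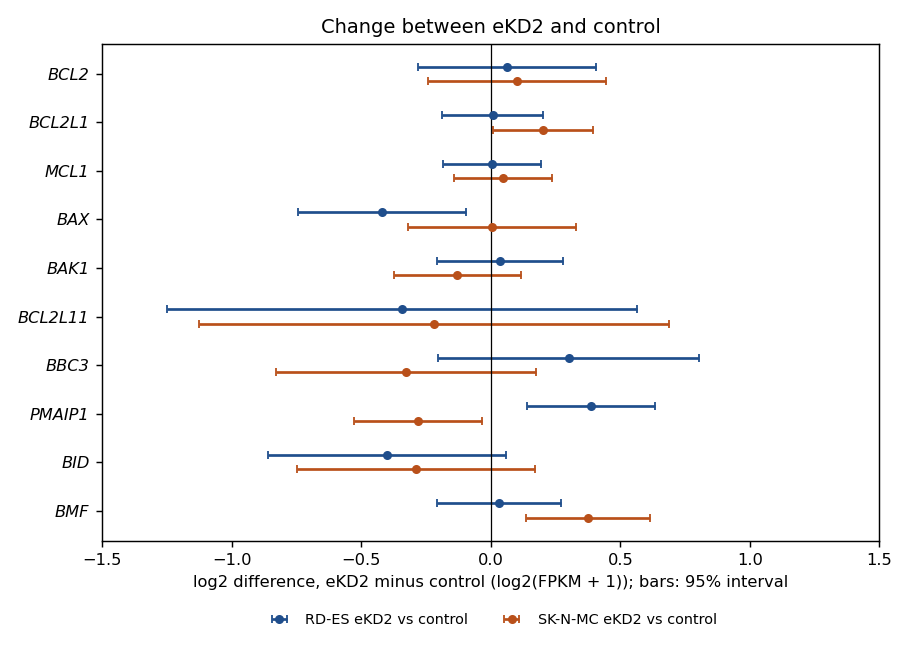
Log2 difference between eKD2 and control (horizontal axis, log2(FPKM + 1) scale) for each member in RD-ES (blue) and SK-N-MC (orange), with 95% intervals of the limma fit. PMAIP1 lies at 0.39 for RD-ES and at -0.28 for SK-N-MC, MCL1 lies at 0.01 and 0.05, and no member passed the adjusted threshold.

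Summed over roles, the anti-apoptotic members made up 23.8% ± 1.09 of the FPKM of the 10 members in RD-ES control and 17.2% ± 0.384 in SK-N-MC control (SD, n = 2 each). The BH3-only members made up 35.6% ± 2.40 in RD-ES control and 48.9% ± 0.807 in SK-N-MC control. This share leaves out BAD, a BH3-only gene outside the 10 members, which was lower in SK-N-MC control (38.0 FPKM on average) than in RD-ES control (57.6 FPKM), without passing the threshold. HRK, also BH3-only and outside the 10, was at 5.21 FPKM in SK-N-MC control against 0.00539 FPKM in RD-ES control. It passed the filter on low values only through SK-N-MC, so it is no evidence of a direction. MCL1 accounted for 77.4% ± 1.78 of the anti-apoptotic sum in RD-ES control and 60.2% ± 1.08 in SK-N-MC control, and BCL2 for 2.25% ± 0.115 and 13.9% ± 0.109. The anti-apoptotic sum likewise leaves out BCL2L2, which averaged 19.6 FPKM in SK-N-MC control, above BCL2L1 (15.7 FPKM) and BCL2 (8.46 FPKM). Its RD-ES control mean was lower, 10.6 FPKM (limma adjusted p = 0.0016). Counting BCL2L2 would raise the anti-apoptotic share more in SK-N-MC than in RD-ES, and would lower the MCL1 share of that sum in both lines. These sums are descriptions over chosen members and carry no test, and mRNA shares are not protein shares.

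Ratios within a library do not depend on how libraries are scaled. The ratio of MCL1 to PMAIP1, the pair whose proteins bind each other, was 1.85 and 1.80 in RD-ES control against 1.34 and 1.45 with eKD2, and 0.503 and 0.521 in SK-N-MC control against 0.600 and 0.692 with eKD2. It was lower with eKD2 in RD-ES and higher with eKD2 in SK-N-MC, and MCL1 exceeded PMAIP1 in every RD-ES library and in no SK-N-MC library. The ratio of MCL1 to BCL2 was 36.3 and 32.6 in RD-ES control and 4.25 and 4.40 in SK-N-MC control, and with eKD2 it overlapped with control in RD-ES (29.0 and 36.6) and in SK-N-MC (3.79 and 4.51). BAX exceeded BCL2 by 74.3 and 70.1 times in RD-ES control and 39.9 and 64.6 times in RD-ES eKD2, against 13.2 and 13.6 times in SK-N-MC control and 10.3 and 15.01 times in SK-N-MC eKD2.

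The summed anti-apoptotic to effector ratio was 0.591 and 0.580 in RD-ES control and 0.869 and 0.691 in RD-ES eKD2, a log2 difference of 0.41, or 0.24 without RD-ES eKD2 replicate 1 and 0.57 without replicate 2. Both eKD2 libraries were above the controls, and BAX, the largest term, is in its denominator: without the most abundant member of each side the log2 difference was -0.02. In SK-N-MC the ratio was 0.513 and 0.506 in control and 0.610 and 0.492 in eKD2, so that the groups overlapped. The anti-apoptotic to BH3-only ratio in RD-ES was 0.723 and 0.616 for control and 0.708 and 0.707 for eKD2, which overlapped. In SK-N-MC it was 0.362 and 0.343 in control and 0.446 and 0.418 in eKD2, a log2 difference of 0.29 with both eKD2 libraries above. The plot of summed FPKM shows how each library is made up.

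**Figure D4:**
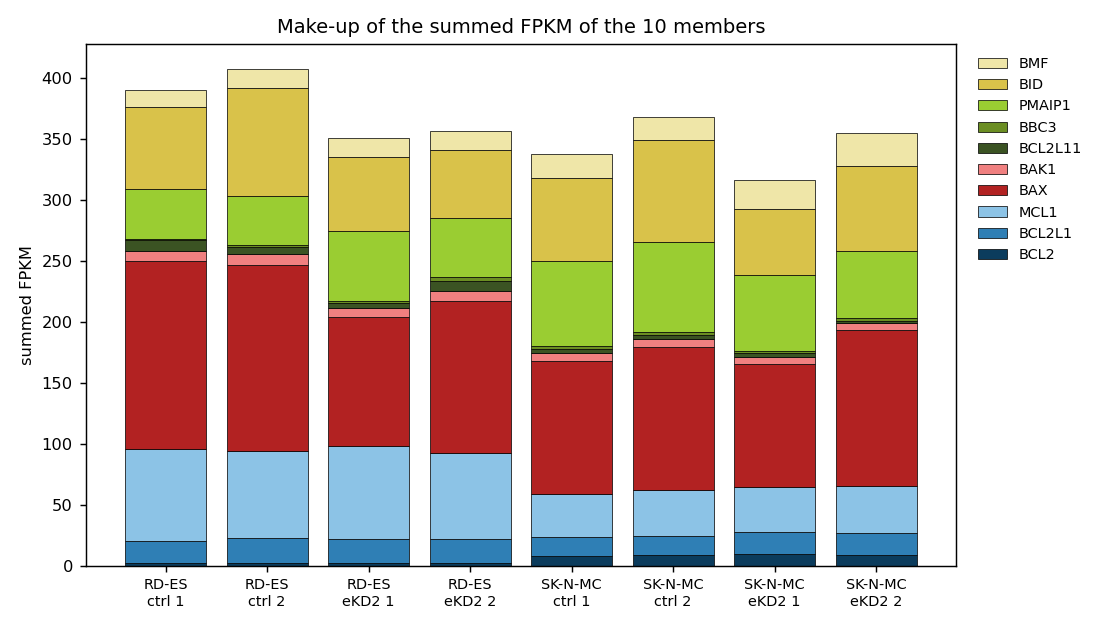
Summed FPKM of the 10 members in each of the 8 libraries (bars from 0), split by member with blue for anti-apoptotic members, red for effectors and green to yellow for BH3-only members. The blue part reaches 92.3 to 98.5 FPKM in RD-ES libraries and 59.1 to 65.6 FPKM in SK-N-MC libraries, and the BAX segment is tallest in RD-ES control.

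Among transcription factors known to act on genes of this family, ATF3 and DDIT3 moved with eKD2 in RD-ES. They belong to the stress response downstream of ATF4, and PMAIP1, BBC3 and BCL2L11 are known targets of this response. ATF3 was at 11.1 and 8.82 FPKM in RD-ES control against 52.4 and 55.1 FPKM in eKD2, a rise of 5.40-fold in the means (log2 difference 2.33, SE 0.11, limma adjusted p = 0.0012). DDIT3, which encodes CHOP, was at 40.4 and 43.1 FPKM in RD-ES control against 99.2 and 110 FPKM in eKD2, a rise of 2.51-fold (log2 difference 1.31, SE 0.08, limma adjusted p = 0.0032). They were the 2 of 16 listed factors that passed in RD-ES, beside 0.343% of all genes, and none passed in SK-N-MC, beside 0.323% (4 lower at an unadjusted p under 0.05, beside 13.0% in either direction). With RD-ES fitted alone the adjusted p was 0.16 for ATF3 and 0.17 for DDIT3, and with a replicate block that of ATF3 was 0.060. Without RD-ES eKD2 replicate 1 the log2 difference was 2.37 for ATF3 (adjusted p = 0.0080) and 1.38 for DDIT3 (adjusted p = 0.0066).

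In SK-N-MC the same factors started high. ATF3 was at 58.4 and 61.8 FPKM in SK-N-MC control against 37.9 and 36.2 FPKM in eKD2 (log2 difference -0.68, limma adjusted p = 0.11). DDIT3 was at 185 and 189.5 FPKM in control against 139 and 150 FPKM in eKD2 (log2 difference -0.37, limma adjusted p = 0.17). The changes of the lines differed for both (ATF3 by -3.01, limma adjusted p = 0.0017, and DDIT3 by -1.68, limma adjusted p = 0.0048), although with the replicate number as a block the adjusted p was 0.074 and 0.058. The group means of PMAIP1 and DDIT3 had the order RD-ES control, RD-ES eKD2, SK-N-MC eKD2 and SK-N-MC control from low to high. PMAIP1 values overlapped in the eKD2 libraries. Among the listed factors ATF4, FOXO1, FOXO3, STAT3 and JUN had this order too, as did MOAP1 and BNIP3L. The share of all genes with this order was not counted. ATF3 was higher in RD-ES eKD2 (53.7 FPKM) than in SK-N-MC eKD2 (37.0 FPKM). Whether any of these factors acts on PMAIP1 in these cells was not tested. Mean ATF4 levels were 197 ± 6.70 FPKM (RD-ES control), 232 ± 0.537 (RD-ES eKD2), 449 ± 18.7 (SK-N-MC control) and 429 ± 21.9 (SK-N-MC eKD2), with the SD of 2 libraries. BBC3 and BCL2L11 values overlapped between control and eKD2 in RD-ES, as given above.

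**Figure D5:**
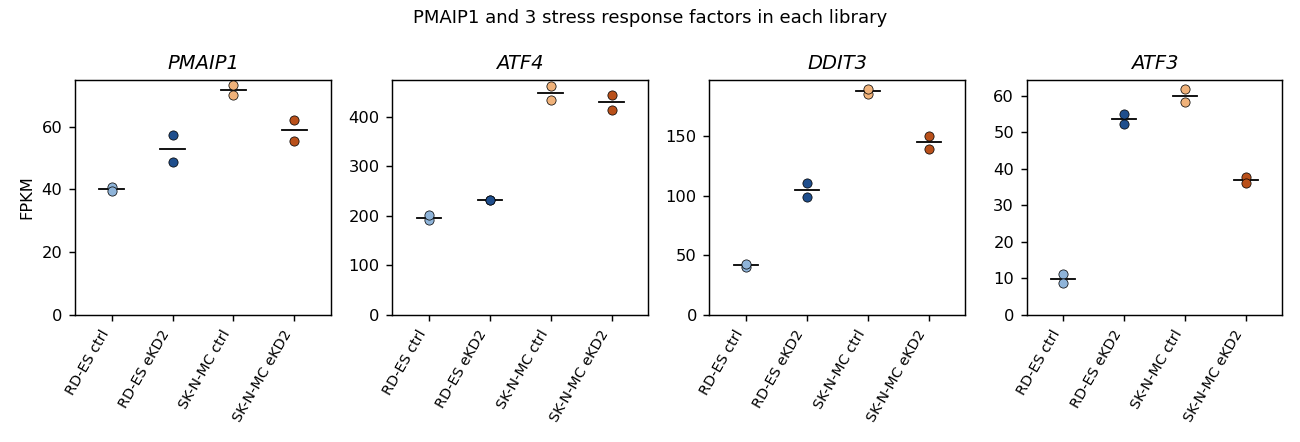
FPKM (linear axes from 0) of PMAIP1 and of the stress response factors ATF4, DDIT3 and ATF3 in each library, by group; points are libraries and black lines are means of 2. PMAIP1, DDIT3 and ATF3 are lowest in RD-ES control, higher in RD-ES eKD2 and lower in SK-N-MC eKD2 than in SK-N-MC control; the PMAIP1 differences between eKD2 and control did not pass the adjusted threshold.

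Other genes of the family added 14 symbols, 8 of which were tested. With eKD2, 0 of 8 passed in either line (limma), beside 0.343% (RD-ES) and 0.323% (SK-N-MC) of all genes. At an unadjusted p under 0.05, MOAP1 (log2 difference 0.32, adjusted p = 0.21) and BCL2L13 (0.41, adjusted p = 0.36) were higher in RD-ES and BNIP3 was lower in SK-N-MC. BNIP3, a hypoxia-responsive gene of mitophagy, was at 36.0 and 36.3 FPKM in SK-N-MC control against 20.8 and 23.2 FPKM in eKD2, 0.608 of the control mean (log2 difference -0.69, SE 0.09, limma adjusted p = 0.068). Its RD-ES libraries were at 26.5 and 30.1 FPKM in control against 26.4 and 26.9 FPKM in eKD2. The change of BNIP3 differed between the lines by -0.61 (limma adjusted p = 0.19).

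Between the control libraries of the lines, 6 of these 8 were higher in SK-N-MC and none lower, beside 31.4% of all genes higher and 26.4% lower. HRK, a BH3-only gene first known from neurons, was listed at 0 and 0.0108 FPKM in RD-ES control against 4.88 and 5.55 FPKM in SK-N-MC control (limma adjusted p = 5.7e-05). Its mean over the libraries, 2.70 FPKM, passed the filter on low values only through SK-N-MC. The place of HRK among the 6 higher genes was therefore set by the filter and is no evidence of a direction. BCL2L2, the anti-apoptotic BCL-w, had means of 10.6 ± 1.73 FPKM in RD-ES against 19.6 ± 0.395 in SK-N-MC (log2 difference 0.84, limma adjusted p = 0.0016), so that it too was in the direction of BCL2 and not of MCL1. BNIP3L (log2 difference 1.42), MOAP1 (1.44), BCL2L13 (1.04) and BNIP3 (0.35) were the others. The BNIP3 call was lost after median scaling (limma adjusted p = 0.071) and without a filter on low values (0.063). Leaving out 1 library moved its log2 difference between 0.26 and 0.44. BAD and BCL2L12 did not pass (-0.55 and -0.50, adjusted p = 0.082 and 0.068). BCL2A1, BCL2L10, BOK, BIK, BCL2L14 and BCL2L15 were under the filter, with BCL2A1 at 0 FPKM in every library.

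Downstream and upstream steps were read from 3 more lists, to be set beside the shares of all genes: with eKD2 0.343% (RD-ES) and 0.323% (SK-N-MC) passed, 12.3% and 13.0% did so without adjustment, and between the control libraries 57.8% passed. Of 20 genes of the apoptosome, the caspases and their inhibitors, none passed with eKD2 in either line (without adjustment, 3 in RD-ES against 1 in SK-N-MC), while 3 were higher and 5 lower in SK-N-MC control than in RD-ES control, 8 of 20 in all and below the share of all genes. BIRC3, an inhibitor of apoptosis protein, was at 15.9 FPKM in RD-ES and 1.40 FPKM in SK-N-MC, and the caspase-activated DNase inhibitor DFFA at 85.1 and 41.9 FPKM. Of 10 tested death receptor genes none passed with eKD2 (0 also without adjustment in either line), and 3 were higher and 4 lower in SK-N-MC. The receptors TNFRSF10A (20.02 FPKM in RD-ES against 1.56 in SK-N-MC), FAS (17.5 and 1.81 FPKM) and TNFRSF10D (12.03 and 2.23 FPKM) were the lower genes with the smallest p, upstream of BID, whose own level overlapped between the lines. Of 11 tested partners and turnover factors none passed with eKD2 (without adjustment, 0 in RD-ES against 2 in SK-N-MC), and 6 were lower and 1 higher in SK-N-MC. Among the lower genes were PPIF (119 FPKM in RD-ES and 29.8 FPKM in SK-N-MC), VDAC1 (204 and 121 FPKM) and DYNLL2 (25.0 and 10.0 FPKM). The higher gene was VDAC3 (159.5 and 260 FPKM).

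For each member, the gene most alike in pattern was found by Pearson's r of log2(FPKM + 1) over the 8 libraries, as a description in which the difference between the lines weighs most. MCL1 was most alike to ARF4 (r = 0.999), BCL2 to COCH (r = 0.998), PMAIP1 to C18orf21 (r = 0.996), BAK1 to PSMC4 (r = 0.995), BMF to AC007383.2 (r = 0.994) and BCL2L1 to DCAF12L2 (r = 0.994). The others had lower values (BCL2L11 with GLYCTK, r = 0.973; BAX with QDPR, r = 0.956; BBC3 with SMAD1, r = 0.947; BID with UNC119, r = 0.929). The values of C18orf21 were 19.1 and 19.4 FPKM (RD-ES control), 24.9 and 21.7 (RD-ES eKD2), 28.5 and 29.2 (SK-N-MC control) and 26.8 and 24.2 (SK-N-MC eKD2), with the groups in the order seen for PMAIP1.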

How the data were processed

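RNA-seq of 8 libraries (2 per group) was used. The authors aligned single-end reads to GRCh37 (hg19) with STAR and deposited FPKM values per gene, a read number normalised to transcript length and library size (cufflinks and cuffnorm). The submitters' processing notes name FastQC, STAR, Cuffnorm and DESeq2; the counts behind the DESeq2 test were not used here, so that the test of the study was replaced by limma. FPKM keeps no read numbers, so no counting error is given, and depth is known only as a ratio between libraries (the ratio was shared by 17.6% to 22.9% of low genes). Genes whose mean over the libraries reached 1 FPKM were compared as log2(FPKM + 1) with limma 3.58.1 (lmFit, contrasts.fit and eBayes with trend) in R 4.3.3, with 4 group means in 1 fit and Benjamini-Hochberg adjustment over all 15175 genes. The 2-group changes share no libraries, whereas the difference of changes and the comparisons of the lines reuse them. The procedure was tested on simulated data.

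Groups came from the labels. The 10 members, the gene lists and the tests were chosen with earlier results of these data known. All members, all other BCL2 family genes and LOXHD1 were named, from each other list at most 3 called genes per comparison by smallest p, and for each member the gene with the highest r. DYNLL2 with eKD2 and the marker genes were named after their values were seen, and some listed genes are not reported here. Positions are from GENCODE annotation of GRCh37 and upstream sequences from RefSeq on GRCh38.p14. Alternatives were a pseudocount of 0.1, no filter, a filter at 5 FPKM, median scaling, quantile normalization, each line (or the control libraries) fitted alone, no trend, a replicate block and leaving out each library.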

Additional observations from a re-analysis of the deposited data

Results flagged for a closer look

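The change of PMAIP1 with eKD2 went in opposite directions in the lines: both RD-ES eKD2 libraries were above both controls and both SK-N-MC eKD2 libraries were below both controls. Subtracting the RD-ES change from the SK-N-MC change gave -0.67 on the log2(FPKM + 1) scale (SE 0.14, unadjusted p = 0.0034), and it did not pass adjustment over all genes tested (limma adjusted p = 0.19). Of all genes tested, 10.2% had eKD2 libraries on opposite sides of the controls in this way.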

How the results depend on the processing

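The count of members changed with eKD2 was 0 in both lines, and 0 for the difference of changes, under every alternative that could be run; fitting each line alone gives no value for that difference. The count of 7 members differing between control libraries ranged from 3 (without SK-N-MC control replicate 1 or 2) to 9 when 1 library was left out, and was 4 between eKD2 libraries. The log2 balance of anti-apoptotic to effector members in RD-ES (0.41 as reported) was 0.22 from mean log2 levels and -0.022 without the most abundant member of each side, which gave 0.33 in SK-N-MC and -0.23 for the anti-apoptotic to BH3-only balance in RD-ES.

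Same-numbered libraries correlated between -0.02 and 0.06 in their deviations from group means over all genes tested. A correlation over all genes cannot decide whether same-numbered libraries of a line share a culture or batch, since sharing may touch only some genes. With a replicate block, 0 members were called with eKD2 in either line and for the difference of changes, and 8 between the lines, and over all genes 11, 5 and 7 with eKD2 and 9067 between the lines.

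In RD-ES, small changes turned sign: BCL2 with quantile normalization (-0.0105), BCL2L1 with median scaling (-0.0615) and quantile normalization (-0.0491), MCL1 (-0.0651 and -0.00055), BAK1 (-0.0292 and -0.0384) and BMF (-0.0355 and -0.0299). The LOXHD1 difference of changes was 0.42 with a pseudocount of 0.1. Between eKD2 libraries the line difference was -0.0873 for BBC3, 0.078 for BID, -0.27 for BNIP3 and -0.53 for ATF3.

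Leaving out 1 library, the RD-ES change ranged from -0.0946 to 0.22 for BCL2, -0.0574 to 0.0722 for BCL2L1, -0.0517 to 0.0644 for MCL1, -0.83 to 0.14 for BCL2L11, -0.0389 to 0.11 for BAK1 and -0.0355 to 0.10 for BMF. The SK-N-MC change ranged from -0.0114 to 0.10 for MCL1, -0.51 to 0.070 for BCL2L11 and -0.16 to 0.17 for BAX. The difference of changes ranged from -0.12 to 0.20 for BCL2, -0.0189 to 0.0972 for MCL1, -0.36 to 0.61 for BCL2L11 and -0.0895 to 0.31 for BID, and the line difference of BID from -0.23 to 0.17. The cause of these moves was not tested.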
